A study of Mus musculus with 4 samples.

Results

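Channels, transporters and a receptor that serve the melanosome were followed through the exon table of the Mitf induction experiment. The set held 9 genes, Slc24a5, Slc45a2, Oca2, Trpm1, Gpr143, Tpcn2, Slc7a11, Atp7a and Mfsd12. They were chosen by name for their place in the melanosome or, for Slc7a11, in bringing cystine into the cell, with earlier results of these data known. Exons were assigned to genes with GENCODE M21, which gave 150 exons of these 9 genes among 226463 exons of 22835 genes. Wild-type mouse embryonic fibroblasts at passage 3 (WT MEF) were compared with Mitf knock-in MEFs at passage 5, which were kept without doxycycline (Dox (-)) or with it for 6 days (Dox (+)). The knock-in cells of both groups carried the M2rtTA transactivator at ROSA26, a tetO-driven M isoform of Mitf at Col1a1 and an mCherry transgene. They descended from 1 targeted clone of KH2 embryonic stem cells and were taken from chimeric embryos, so that host cells can be present unless they were purified away. The genetic background of WT MEF is not given in the sources used here. Primary melanocytes (PMel, passage 5) were also sequenced and were not analysed here. Each condition had 1 library, so no spread between replicates exists, no p-value is given, and every interval below covers counting error only.

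A melanosome is a lysosome-related organelle in which tyrosinase and its relatives build melanin on a protein scaffold. The enzymes depend on the membrane around them, which sets the ion, copper and cystine content of the lumen. OCA2 carries a chloride conductance that raises the luminal pH, SLC45A2 is a sugar and proton carrier that helps to keep it raised, and TPC2, the product of Tpcn2, is a cation channel that lowers it. SLC24A5 exchanges sodium for calcium and potassium, and ATP7A pumps the copper that tyrosinase needs. SLC7A11 brings cystine into the cell, and MFSD12 brings cysteine into the organelle, where it feeds the red-yellow pheomelanin. TRPM1, or melastatin, is a cation channel of melanocytes and retinal bipolar cells, and GPR143 is a melanosomal G protein-coupled receptor whose loss causes ocular albinism. Trpm1 and Gpr143 are textbook targets of MITF.

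The values were RPKM, reads per kb of exon and scaled by the reads of the library. Low values were whole reads at a depth of 45000000 reads for WT MEF and Dox (-) and 44000000 for Dox (+), so reads could be recovered. A count of 0 allows up to 3 reads, which is the floor used here, and where a library held 1 to 3 reads the ratio is given with its wide counting interval. The values of WT MEF come from a column matched by its name alone. For the same genes the study lists other values under MEF, so each comparison with WT MEF describes the library labelled MEF. Mitf was at 1.52 RPKM in its highest exon in WT MEF, 30.8 in Dox (-) and 1544 in Dox (+), in the order of the labels. Dox (-) stood apart in cell type markers. The highest exons of 8 macrophage markers summed to 53.4 RPKM in WT MEF, 14683 in Dox (-) and 541 in Dox (+), and 8 of 8 were past 4-fold lower in Dox (+) than in Dox (-). The sums for 8 fibroblast markers were 18350, 45433 and 11943 RPKM, with Col1a1, Col1a2 and Col3a1 the largest in WT MEF and Dox (-). Single fibroblast markers differed from the sum. Against WT MEF 3 of the 8, Dcn, Thy1 and Lum, were past 4-fold higher in Dox (+) and 0 were lower. The median log2 fold change of the 8 was 0.89 there. Against Dox (-) 4 were past 4-fold lower in Dox (+) and 0 were higher. The sums for 8 Schwann and glial markers were 316, 635 and 391 RPKM. Those for 8 keratinocyte markers were 69.3, 13.4 and 34.2, and those for 8 melanocyte markers, Mitf among them, 5.90, 45.5 and 1808. In bulk samples of this kind a change in the number of cells of a type and a change in the RNA per cell cannot be told apart. The middle of all tested genes also moved: the median log2 fold change was 0.23 for Dox (+) against Dox (-), 0.27 for Dox (+) against WT MEF and 0.01 for Dox (-) against WT MEF.

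A gene was called past the fold when its highest exon exceeded 10 RPKM in at least 1 of the 2 libraries compared and differed by more than 4-fold. The highest exon was taken in each library on its own and need not be the same exon. In Dox (+) against Dox (-) 7.05% of 13307 tested genes were past the fold, 1.64% higher and 5.41% lower. Of the 9 melanosome genes 6 were above 10 RPKM in this comparison, and of these 1 was past the fold, Trpm1, which was higher and which entered only through Dox (+). In all 3 comparisons Slc24a5 was above 10 RPKM only through its last exon, which overlaps the gene Myef2. Its highest exon shared with no other gene was at 5.50, 8.93 and 3.60 RPKM in WT MEF, Dox (-) and Dox (+). In Dox (+) against WT MEF 9.95% of 12941 genes were past the fold, 6.55% higher and 3.4% lower, and 2 of 6 melanosome genes were, Trpm1 and Mfsd12, both higher and both above 10 RPKM only in Dox (+). Of all genes past the fold there 65.8% were higher, and 53.4% after the libraries were rescaled to the median gene. In Dox (-) against WT MEF 9.47% of 13234 genes were past the fold, 8.26% higher and 1.21% lower, and 1 of 5 melanosome genes was, Mfsd12, again higher and above 10 RPKM only in Dox (-). Over the 9 genes, those below 10 RPKM included, the log2 fold changes had medians of 0.00, 0.50 and 0.02 in the 3 comparisons. The medians of all tested genes given above cover only genes above 10 RPKM, so they are not like for like. The 0.00 is the value of Oca2, with 0 reads, and the 0.02 that of Slc45a2, with 4 reads in Dox (-) and 1 in WT MEF. The counts past the fold rest on few genes and hide several patterns within them, which are described gene by gene.

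**Figure D1:**
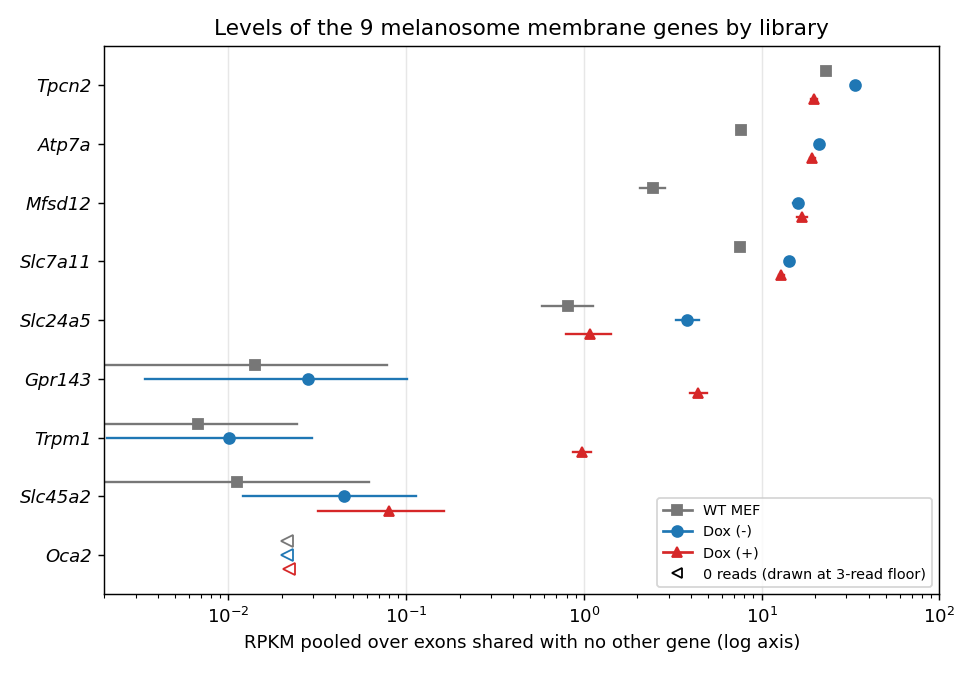
RPKM of the 9 genes in each library, pooled over the exons that overlap no exon of another gene, on a log axis. Bars are 95% Poisson intervals, cut at the left edge, and open triangles mark 0 reads at the level of 3 reads. Tpcn2, Atp7a, Mfsd12 and Slc7a11 lie above 2 RPKM in every library, while Gpr143 and Trpm1 are near or below 0.1 RPKM in WT MEF and Dox (-) and at 4.41 and 0.982 RPKM in Dox (+).

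In this plot of levels the genes formed 2 tiers. Pooled over exons of their own, Tpcn2 came first in all 3 libraries, and Atp7a, Slc7a11 and Mfsd12 took the next 3 places. Atp7a and Slc7a11 could not be told apart in WT MEF (7.63 and 7.59 RPKM), nor could Tpcn2 and Atp7a in Dox (+) (19.8 and 19.3 RPKM), since their counting intervals overlapped. All other neighbours in the upper tier lay apart. In Dox (+) Gpr143 followed at 4.41 RPKM, and Slc24a5 and Trpm1 came next with overlapping intervals at 1.08 and 0.982 RPKM. Slc45a2 and Oca2 were last in Dox (+). In WT MEF and Dox (-) the 4 lowest genes, Gpr143, Slc45a2, Trpm1 and Oca2, overlapped from each neighbour to the next.

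**Figure D2:**
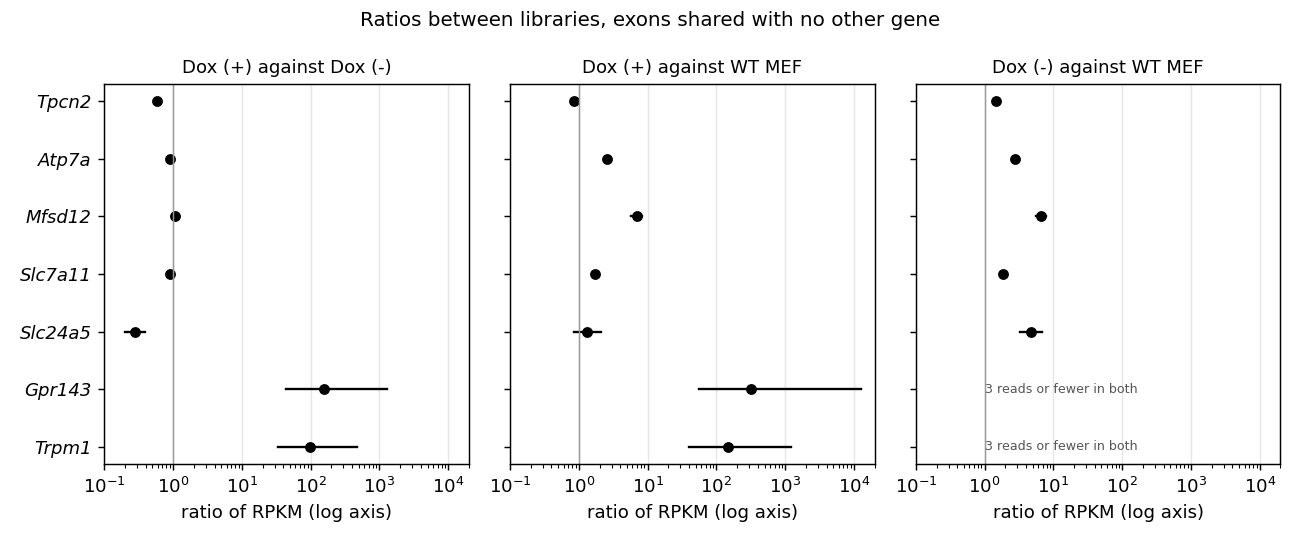
Ratio of RPKM between libraries for 7 genes on a log axis, pooled over exons that overlap no other gene, with 95% exact counting intervals. In Dox (+) against Dox (-) Gpr143 and Trpm1 lie far to the right, Slc24a5 and Tpcn2 lie to the left of 1, and the other 3 lie close to 1.

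Trpm1 was at the floor without induction and carried reads with it. Its 27 non-overlapping exons on chr7:64153835-64269775 (plus strand) held 2 reads in WT MEF, 3 in Dox (-) and 314 in Dox (+). Dox (+) therefore stood alone, 107-fold above Dox (-) with an interval from 36.3 to 522. The highest exon, the tenth, of 73 bp, had 2 reads in WT MEF, 0 in Dox (-) and 33 in Dox (+), or 10.3 RPKM in Dox (+), just inside the threshold. On the log2 scale with a pseudocount of 1 RPKM the highest exon was 3.17 higher in Dox (+) than in Dox (-) and 2.81 higher than in WT MEF. In Dox (-) the highest exon was another one, exon 8, at 0.254 RPKM. The call rests on the exon of 73 bp. It was lost when exons were pooled, when the libraries were rescaled, when the threshold was 30 RPKM and when 5 RPKM were added to each value.

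The reads of Trpm1 were not spread over the gene. GENCODE M21 holds a short transcript, Trpm1-202 (chr7:64185459-64224836), that starts inside the gene and ends well before its 3′ end. This stretch was picked after the exon values were seen. The 14 exons within it held 2, 2 and 309 reads in WT MEF, Dox (-) and Dox (+), that is 0.0152, 0.0152 and 2.40 RPKM. The first exon of the long form, upstream of it, had 0 reads in all 3 libraries, which allows up to 3 reads in 272 bp. The 11 exons that follow the stretch, without the last exon of the gene, had 0 reads in WT MEF, 1 in Dox (-) and 0 in Dox (+) over 1835 bp. The last exon, of 1798 bp, had 5 reads in Dox (+) and 0 in the others. Within the stretch 13 of 14 exons had more than 3 reads in Dox (+), and the exon of 51 bp had 0. The fifth exon, with 28 reads, overlaps the gene Gm44722, and since the library kit marks no strand its reads cannot be assigned. Without it Dox (+) held 286 reads, 97.5-fold above Dox (-), with an interval from 33.0 to 476.

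The 250 bases before the upstream start and before the start inside the gene are shown, because only exons from the second start onward carried reads in Dox (+). They come from the RefSeq promoter table of GRCm38.p6 (mm10), plus strand. Capitals mark matches, searched on both strands, to the letters CATGTG, with their reverse complement CACATG, or to the palindrome CACGTG. These are forms of the E-box, the motif that MITF is known to bind.

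Trpm1 upstream start, chr7:64153585-64153834: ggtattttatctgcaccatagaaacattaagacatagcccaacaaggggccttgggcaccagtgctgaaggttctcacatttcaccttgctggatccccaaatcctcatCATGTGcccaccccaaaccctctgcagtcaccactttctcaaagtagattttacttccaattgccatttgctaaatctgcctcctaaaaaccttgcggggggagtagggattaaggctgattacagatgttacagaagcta

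Trpm1 inner start, chr7:64185209-64185458: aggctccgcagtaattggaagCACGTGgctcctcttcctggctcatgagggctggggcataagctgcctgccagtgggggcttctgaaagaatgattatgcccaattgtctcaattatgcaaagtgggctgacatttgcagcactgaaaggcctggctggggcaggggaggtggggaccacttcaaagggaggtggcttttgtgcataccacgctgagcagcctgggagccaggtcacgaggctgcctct

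The upstream window held CATGTG with its first base 141 bases before the start, and the inner window held CACGTG 229 bases before it. Of 32851 RefSeq windows of the same length 12.3% held CATGTG or its reverse complement CACATG, 6.02% held CACGTG and 17.6% held any of them. A window was given for 7 of the 9 genes, all but Slc45a2 and Gpr143. Of these 8 windows, 6 windows of 5 genes held a match. Besides Trpm1 these were Slc24a5 (CACATG, 13 bases before the start), Oca2 (CACATG, 186 bases), Slc7a11 (CATGTG, 74 bases) and Atp7a (CACGTG, 87 bases). The windows of Tpcn2 and Mfsd12 held none of these letters. Oca2 had a match and 0 reads. The same 6 letters, CACGTG, stood before the inner start of Trpm1 and before Atp7a, whose ratios of Dox (+) to Dox (-) were 107 and 0.917. Whether any match plays a part in these values was not tested.

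**Figure D3:**
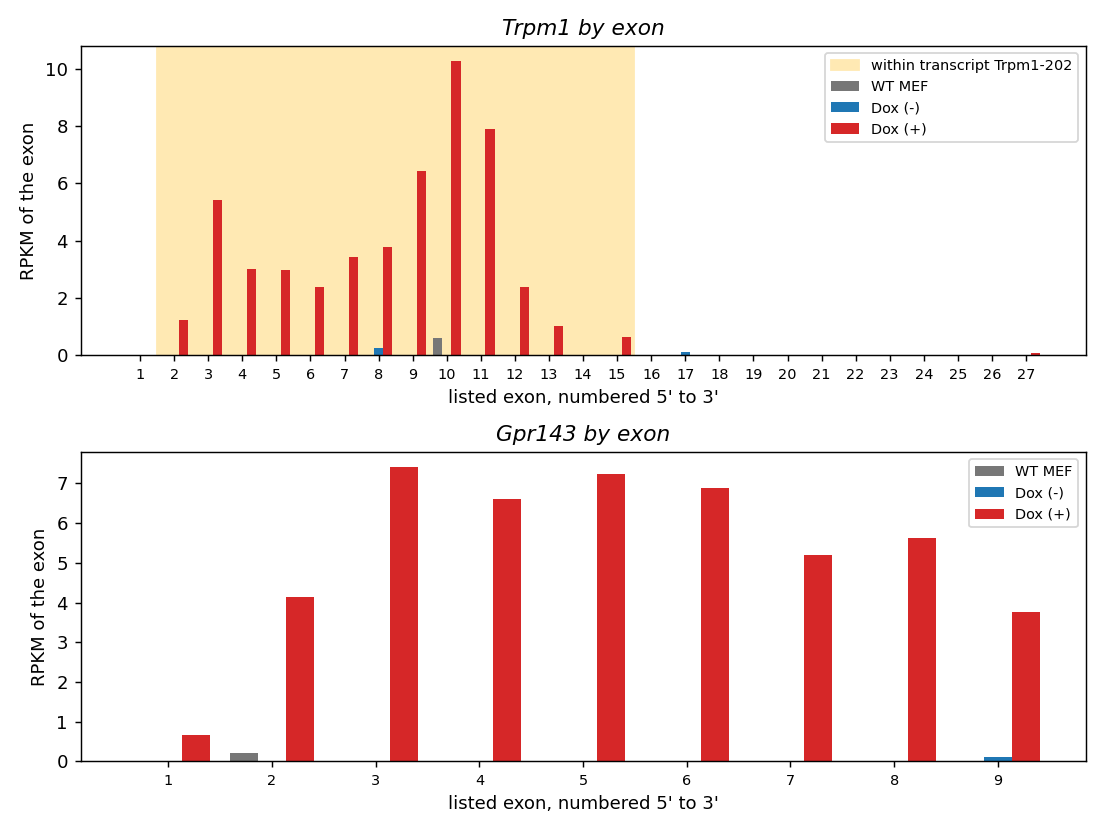
RPKM of each listed exon of Trpm1 (27 exons) and Gpr143 (9 exons) in 5′ to 3′ order, with 1 bar per library. In Dox (+) the Trpm1 reads lie in the shaded exons of the short transcript, apart from 5 reads in the last exon, while every Gpr143 exon carries reads.

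Gpr143, the receptor, showed the other shape. On chrX:152781921-152808646 (plus strand) its 9 exons held 1 read in WT MEF, 2 in Dox (-) and 308 in Dox (+), or 0.0140, 0.0280 and 4.41 RPKM. All 9 exons had more than 3 reads in Dox (+), from 9 reads in the first exon to 67 in the last, and none had in the other libraries. Dox (+) was 157.5-fold above Dox (-), with an interval from 43.2 to 1306, and 315-fold above WT MEF, with an interval from 56.1 to 12482. Its highest exon reached 7.42 RPKM, so Gpr143 stayed outside the threshold of 10 RPKM in spite of a log2 fold change of 2.92. With the threshold at 1 RPKM it was past the fold. Trpm1 and Gpr143 thus had nearly the same number of reads in Dox (+) over all their exons, 314 and 308, and Gpr143 had the higher level per kb, 4.41 RPKM against 2.40 RPKM in the 14 filled exons of Trpm1.

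Slc24a5, the sodium-calcium exchanger, went the other way and needs its exons taken apart. Its highest exon, the last, of 714 bp, was at 59.9 RPKM in WT MEF, 44.5 in Dox (-) and 26.6 in Dox (+), with 1924, 1431 and 836 reads. This exon overlaps the 3′ end of Myef2, a repressor of transcription encoded on the opposite strand, and the reads of the genes cannot be told apart there. The 16 exons that Myef2 holds alone were at 36.4, 32.3 and 28.0 RPKM. The 7 exons that belong to Slc24a5 alone (gene at chr2:125068124-125088677, plus strand) were far lower, at 0.817, 3.83 and 1.08 RPKM, with 38, 178 and 49 reads. Dox (-) was thus the high library. It was 4.68-fold above WT MEF, with an interval from 3.28 to 6.84, and Dox (+) was 3.55-fold below it, with an interval from 2.58 to 4.98. WT MEF and Dox (+) could not be told apart (ratio 1.32, interval 0.846 to 2.07). On the highest exon the order of WT MEF and Dox (-) was the opposite, with Dox (-) 1.34-fold below WT MEF.

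The fifth exon of Slc24a5 stood apart from the rest, with 25, 30 and 16 reads in WT MEF, Dox (-) and Dox (+). It overlaps no exon of another gene and was the only one of the 7 with more than 10 reads in WT MEF. Without it the reads were 13, 148 and 33, so that Dox (-) was 11.4-fold above WT MEF (interval 6.46 to 21.9) and Dox (+) was 4.39-fold below Dox (-) (interval 2.99 to 6.60) and 2.60-fold above WT MEF (interval 1.33 to 5.37). The first 4 exons held 0 reads in WT MEF, 26 in Dox (-) and 3 in Dox (+). The seventh exon, which also overlaps Myef2, had 6, 48 and 19 reads and followed the exons that Slc24a5 holds alone. Leaving the fifth exon out was decided after its values were seen.

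**Figure D4:**
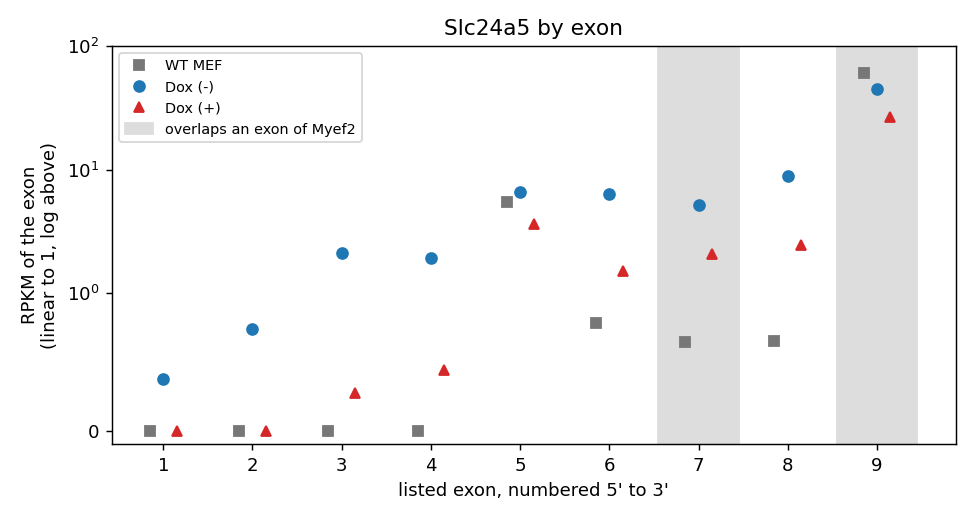
RPKM of the 9 exons of Slc24a5 in 5′ to 3′ order, linear up to 1 and logarithmic above. Grey bands mark the exons that overlap Myef2. Dox (-) is highest in exons 1 to 8, while in the shared last exon WT MEF is highest at 59.9 RPKM.

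The Slc24a5 reads of Dox (-) came with the marker values of that library. The summed Schwann and glial markers were also highest there. Most of that sum was Pmp22, at 297, 426 and 352 RPKM in WT MEF, Dox (-) and Dox (+). Of the 4 in this list above 10 RPKM, 3 were past the fold lower in Dox (+) than in Dox (-). S100b, below 10 RPKM, was instead lowest in Dox (-), at 4.72, 3.35 and 4.51 RPKM. Sox10, the neural crest factor, a melanocyte marker below 10 RPKM named here after its values were seen, was at 0.0514, 6.69 and 1.66 RPKM. The macrophage and fibroblast marker sums peaked in Dox (-) as well. The melanocyte list as a whole did not, since Mitf, Tyrp1 and Mlana were past the fold higher in Dox (+). The part of any of these cell types in the Slc24a5 values was not tested.

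Slc45a2 and Oca2 stayed at the bottom of the range in all 3 libraries, also with Mitf induced. Slc45a2, the sugar and proton carrier, had only 2 exons in the table (gene at chr15:11000721-11029233, plus strand), of 481 and 1519 bp. They held 1 read in WT MEF, 4 in Dox (-) and 7 in Dox (+), or 0.0111, 0.0444 and 0.0795 RPKM. The ratio of Dox (+) to Dox (-) was 1.79 with an interval from 0.455 to 8.34, so no difference was detectable at this depth. Oca2, the chloride channel gene on chr7:56239760-56536518 (plus strand), had 0 reads on all 24 non-overlapping exons in every library. Over 3132 bp this allows a level of up to 0.0213 RPKM in WT MEF and Dox (-) and 0.0218 in Dox (+). In the same library Gpr143 had 308 reads over 1586 bp.

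Tpcn2, the endolysosomal cation channel, was the most abundant gene of the set and was highest in Dox (-). On chr7:145186524-145284011 (minus strand) it held 2954 reads in WT MEF, 4265 in Dox (-) and 2469 in Dox (+), or 23.2, 33.5 and 19.8 RPKM. Dox (+) was 1.69-fold below Dox (-), with an interval from 1.61 to 1.78, and 22 of its 24 exons were lower. The exons spanned ratios from 0.474 in the last exon to 1.02 in the third. Dox (-) was 1.44-fold above WT MEF (interval 1.38 to 1.51), with 24 of 24 exons higher, from 1.11-fold in the last exon to 3.79-fold in the first. Dox (+) and WT MEF lay closest before rescaling, at a ratio of 0.855 (interval 0.810 to 0.902), with 10 exons higher and 14 lower. After rescaling to the median gene Dox (+) was 1.41-fold below WT MEF, Dox (-) was 1.43-fold above it, and Dox (+) was 1.98-fold below Dox (-). The high value in Dox (-) goes with the macrophage and fibroblast marker sums of that library, whose part in it was not tested.

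Of 12 further endolysosomal channels and exchangers, 10 were above 10 RPKM in Dox (+) against Dox (-). None was past the fold higher, 1 was lower, and the median log2 fold change of the 10 was -0.30, against 0.23 over all tested genes. The lower gene was Mcoln2, a mucolipin cation channel, whose highest exon was at 0.983 RPKM in WT MEF, 16.5 in Dox (-) and 1.33 in Dox (+), the order of the macrophage markers. It was also the only gene of this list past the fold in Dox (-) against WT MEF. In Dox (+) against WT MEF 0 of 9 were past the fold.

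Slc7a11, the cystine-glutamate antiporter, gave opposite directions in different exons. Over its 12 exons on chr3:49892526-50443614 (minus strand) it held 3150 reads in WT MEF, 5913 in Dox (-) and 5250 in Dox (+), or 7.59, 14.2 and 12.9 RPKM. By this sum Dox (+) was 1.10-fold below Dox (-), with an interval from 1.06 to 1.14. The last exon, of 7429 bp, held most of the reads, 2819, 5558 and 4698, and its ratio of Dox (+) to Dox (-) was 0.864 (interval 0.831 to 0.899). The 11 exons before it held 331, 355 and 552 reads, or 4.10, 4.40 and 6.99 RPKM, and there Dox (+) was 1.59-fold above Dox (-) (interval 1.39 to 1.82). All 11 were higher in Dox (+), from 1.11-fold to 2.31-fold. After rescaling to the median gene the ratio over these exons was 1.36 (interval 1.18 to 1.55). The ratio of the upstream exons to the last exon was 1.84-fold larger in Dox (+) than in Dox (-), with an interval from 1.60 to 2.12.

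The same split was computed for every gene with at least 100 reads in both sets of exons in both libraries. Over 9774 genes the median was 1.21, with 5% of genes below 0.912 and 5% above 1.66, and 2.45% of genes lay at or above the value of Slc7a11. Against WT MEF the split was larger in Dox (-) than in Dox (+). The last exon was 1.97-fold higher in Dox (-) than in WT MEF (interval 1.88 to 2.06) while the 11 others were at a ratio of 1.07 (interval 0.921 to 1.25). Over 9599 genes the median ratio of the sets was 1.12, and 99.0% lay at or above that of Slc7a11. Dox (+) was 1.71-fold above WT MEF in the 11 upstream exons and 1.70-fold in the last, and no difference between the sets was detectable there (ratio 1.00, interval 0.865 to 1.16). The median over 9347 genes was 1.35 in that comparison, and 87.5% lay at or above Slc7a11, so its ratio was on the low side there too. The split was made after the exon values were seen.

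**Figure D5:**
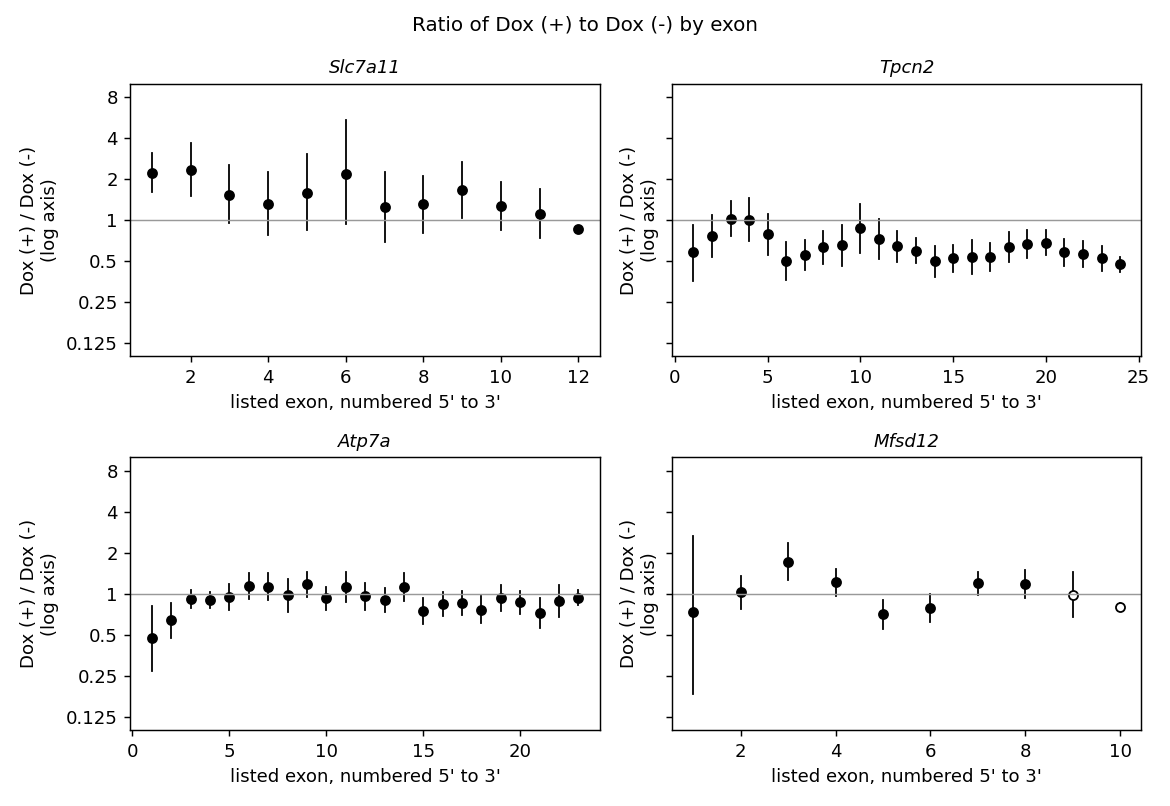
Ratio of Dox (+) to Dox (-) for each exon of Slc7a11, Tpcn2, Atp7a and Mfsd12 in 5′ to 3′ order on a log axis, with 95% exact counting intervals. Open points mark exons that overlap another gene. Slc7a11 lies above 1 in 11 exons and at 0.864 in the last, Tpcn2 lies below 1 in 22 of 24 exons, and Atp7a and Mfsd12 scatter around 1.

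Genes that handle cystine and glutathione were read beside it. Of 12 such genes 11 were above 10 RPKM, and 0 were past the fold in Dox (+) against Dox (-), with a median log2 fold change of 0.89 against 0.23 over all tested genes. In Dox (+) against WT MEF 1 was higher, Gclc, the catalytic subunit that begins glutathione synthesis, at 33.8, 71.6 and 144 RPKM in WT MEF, Dox (-) and Dox (+). Slc3a2, the heavy chain that partners SLC7A11, was at 1063, 757 and 835 RPKM in its highest exon and was not past the fold in any comparison. In Dox (-) against WT MEF 0 of 11 were past the fold, with a median of -0.16.

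Atp7a, the copper pump, separated both knock-in libraries from WT MEF. On chrX:106027276-106124926 (plus strand) it held 1686 reads in WT MEF, 4651 in Dox (-) and 4169 in Dox (+), or 7.63, 21.0 and 19.3 RPKM. Dox (-) was 2.76-fold above WT MEF (interval 2.61 to 2.92) and Dox (+) was 2.53-fold above it (interval 2.39 to 2.68), with 23 of 23 exons higher in both comparisons. Dox (+) and Dox (-) differed little, at a ratio of 0.917 with an interval from 0.879 to 0.956, or 0.781 after rescaling to the median gene. The highest exon of each library gave the opposite direction, 1.08-fold higher in Dox (+), but this set exon 11 of Dox (+) against exon 8 of Dox (-). Compared exon by exon, 18 of 23 were lower in Dox (+). The first exon had 3, 45 and 21 reads and the last had 230, 514 and 469. The ratio of Dox (-) to WT MEF was 1.27-fold larger in the exons before the last than in the last (interval 1.07 to 1.51), and 30.1% of 9599 genes split in the same way lay at or above that value. For Dox (+) against WT MEF it was 1.25-fold larger (interval 1.05 to 1.48), with 61.3% of 9347 genes at or above. WT MEF differed from the knock-in libraries in passage and origin as well as in the transgenes, and these cannot be told apart.

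The copper-handling list held 12 genes, of which 11 were above 10 RPKM. None was past the fold in Dox (+) against Dox (-), where the median log2 fold change of the list was 0.59 against 0.23 over all tested genes. In Dox (+) against WT MEF 2 were higher, the metal-binding metallothioneins Mt2 and Mt1. Mt2 was at 586, 856 and 3272 RPKM and Mt1 at 946, 1032 and 3990 RPKM in WT MEF, Dox (-) and Dox (+). Their ratios of Dox (+) to Dox (-), 3.82 and 3.87, fell just short of 4. None was past the fold in Dox (-) against WT MEF.

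Mfsd12, the melanosomal cysteine importer, showed the largest gap between WT MEF and the knock-in libraries among the 4 abundant genes. The 8 exons that it holds alone (gene at chr10:81357491-81366225, plus strand) had 152 reads in WT MEF, 995 in Dox (-) and 1027 in Dox (+), or 2.44, 16.0 and 16.9 RPKM. Dox (-) was 6.55-fold above WT MEF, with an interval from 5.51 to 7.82, and Dox (+) was 6.91-fold above it, with an interval from 5.82 to 8.25. Each of the 7 exons with at least 10 reads in the sum of both libraries was higher, from 4.57-fold to 12.0-fold in Dox (-) and from 4.90-fold to 12.3-fold in Dox (+). Between Dox (+) and Dox (-) the direction depended on the choice of exons and scale. The ratio was 1.06 (interval 0.967 to 1.15) over these 8 exons, 0.900 (interval 0.824 to 0.983) after rescaling to the median gene and 0.899 (interval 0.850 to 0.95) over all 10 exons. The last 2 exons overlap 4930404N11Rik, and the last also Fzr1. The last exon was at 3.42, 14.9 and 11.9 RPKM, which gave a ratio of Dox (+) to Dox (-) of 0.801 (interval 0.744 to 0.862). The macrophage markers were also past the fold higher in Dox (-) than in WT MEF, 8 of 8, and in Dox (+) 4 of the 5 above 10 RPKM were. Between the knock-in libraries, unlike Mfsd12, 8 of 8 were past the fold lower in Dox (+) than in Dox (-). Of 8 fibroblast markers 3 were past the fold higher than WT MEF in each knock-in library, with Dcn and Lum among them both times. The part of either cell type in the Mfsd12 values was not tested.

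Genes for enzymes and matrix proteins of the melanosome were measured in the same libraries. Of 6 such genes 4 were above 10 RPKM in Dox (+) against Dox (-), and 2 were past the fold higher, Tyrp1, a melanin enzyme, and Mlana, a protein of melanosome assembly. Tyrp1 was listed at 0 in WT MEF and was at 0.520 RPKM in Dox (-) and 110 in Dox (+), and Mlana was at 0.585, 0.390 and 133 RPKM. Gpnmb, a melanosome glycoprotein also made by macrophages, was past the fold higher in both knock-in libraries against WT MEF, at 47.8, 521.5 and 662 RPKM. Tyr, the tyrosinase gene, had 2, 0 and 180 reads, nearly all of them in Dox (+) as for Trpm1 and Gpr143, and its highest exon reached 2.37 RPKM in Dox (+). Dct, the other melanin enzyme of the list below 10 RPKM, did not share this pattern. It had 0, 27 and 66 reads, and its highest exon was at 0.798 RPKM in Dox (-) and 0.900 in Dox (+).

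Relatives of the transporters and of Trpm1 within their gene families were mostly low. Of the other Slc24 genes 1 was above 10 RPKM, Slc24a3, and of the other Slc45 genes 1, Slc45a4. Neither was past the fold. Of 7 other Trpm genes 6 were in the table and 3 were above 10 RPKM. Trpm5 was past the fold higher in Dox (-) against WT MEF, at 8.73, 35.0 and 25.8 RPKM, and apart from Trpm1 no Trpm gene was past the fold in Dox (+) against Dox (-).

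For genes of the set above 10 RPKM the genes with the most similar highest-exon levels were found by the Euclidean distance of log2(RPKM + 1) over 3 libraries. The nearest to Tpcn2 was Ercc5 (at a distance of 0.06), to Slc7a11 Pkia (0.03), to Atp7a Gm11522 (0.08) and to Mfsd12 Rgcc (0.23). With 3 points per gene many genes lie close to any pattern.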

How the data were processed

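RNA was measured in 4 libraries, 1 per condition, and 3 were analysed. Libraries were prepared with a poly(A) selecting kit that marks no strand. Per the labels and the study's methods, the authors aligned the reads with TopHat2 2.0.10 to mm10, used bedtools to count reads over Ensembl exons, and deposited the counts as RPKM. Values were mapped to libraries by column name alone. The study lists other values for MEF than the column used for WT MEF. The number of columns whose name matched no library was 1, and it was not used, so PMel was not analysed here and the planned PMel comparisons were not run. The sources used here do not say how the exons in the table were selected.

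Of 234718 exon identifiers 228132 matched GENCODE M21 and 6586 did not, and 226463 in protein-coding, lincRNA and pseudogene entries were kept. Values times exon length in kb gave reads after multiplication by a whole number for each library, searched between 20 and 80 (45, 45 and 44 for WT MEF, Dox (-) and Dox (+)). Of values below 200 reads 97.1%, 96.9% and 96.8% were whole within 0.02 reads, and the rest were rounded. The level of a gene was its highest exon, after the study's methods, or reads pooled over non-overlapping exons, with or without exons shared with another gene. A gene was past the fold above 10 RPKM in at least 1 library and over 4-fold. Before log2 fold changes were taken 1 RPKM was added, which understates low genes. Intervals (95%) were exact Poisson for levels and exact conditional for ratios. Reads are not independent molecules, so they cover counting error only. Steps were tested on simulated data. The 9 genes, the gene lists and the rules were chosen with earlier results of these data known. The text names the 9 genes, list members past the fold (4 at most), Mitf and the nearest genes, of which some are not reported here. Slc3a2, Tyr, Dct, Sox10, Pmp22, S100b, Slc24a3 and Slc45a4 were named after their values were seen. The alternatives changed the threshold, the fold, the pseudocount, the choice of exons and the scaling. Python 3.11.15, pandas 2.3.3, NumPy 2.4.6, SciPy 1.17.1 and matplotlib 3.10.9 were used.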

Additional observations from a re-analysis of the deposited data

How the results depend on the processing

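The number of genes past the fold, given in order for Dox (+) against Dox (-), Dox (+) against WT MEF and Dox (-) against WT MEF, was 938, 1288 and 1253. It became 1926, 2562 and 2590 with a threshold of 1 RPKM, 564, 842 and 767 with 30 RPKM and 2112, 2657 and 2559 with none. It became 2910, 3776 and 3334 at a fold of 2, 507, 649 and 795 at a fold of 8, and 566, 764 and 755 with pooled exons. Adding 1 RPKM or rescaling kept it within 1.5 times. Of the 9 genes 1, 2 and 1 were past the fold. With 5 RPKM added to each value this was 0, 0 and 0. With pooled exons, with or without those shared with another gene, and after rescaling to the median gene it was 0 and 1 in the comparisons of Dox (+), where Trpm1 was lost, and 1 as before in Dox (-) against WT MEF. Leaving out exons shared with another gene, leaving out the last exon and adding 0.1 RPKM changed none of these counts. Pooling without shared exons and leaving out the last exon were chosen after seeing the data. Of 189 fold changes of single genes under these alternatives, 168 moved by less than their counting error and 21 by more. Those of Oca2, with 0 reads, could not move, and those of Slc45a2 rest on 7 reads or fewer. No called gene changed direction, but some genes not called did. In Dox (-) against WT MEF Slc24a5 went from -0.42 to 1.41 when exons were pooled without shared ones. With the last exon left out Slc7a11 went from 0.70 to -0.42 there, and from -0.20 to 0.74 in Dox (+) against Dox (-). With 1 library per condition the spread between cultures is unknown, and ratios over 3 reads or fewer have wide intervals. The alternatives for PMel were not run. No paired analysis was possible because each condition had 1 library.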
